A study of Mus musculus with 2 samples.

Results

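Brain lipoproteins and their lipid receptors are described here through 8 genes of 55536 annotated genes, chosen by gene symbol. They are the secreted lipid carriers Apoe, Clu and Apod, the lipid exporter Abca1, the endocytic receptor Lrp1, the Reelin receptors Lrp8 and Vldlr, and the sorting receptor Sorl1. Hippocampal total RNA was sequenced from 2 adult male mice of the strain B6CASTF1/J, in which each animal has a C57BL/6J and a CAST/EiJ parent, aged 8 to 10 months, with 1 library per animal. Replicate 1 came from animal 2 and replicate 2 from animal 4, the labels call the tissue a hippocampal layer without saying which, no treatment is named, and both animals carry the same donor entry in the labels. The libraries were strand-specific, reduced in ribosomal RNA, started from 300 ng of RNA and held ERCC spike-ins, which are synthetic control RNAs. Both libraries form 1 group, so levels, transcript shares and the spread between animals are the measurements, and no condition is compared. Each cell therefore carries a CAST/EiJ genome copy, while the files use the mm10 assembly, which is C57BL/6J. Loss of reads from the CAST/EiJ copy was not tested.

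Neurons and glia do not share the lipoprotein pool of the blood. Astrocytes make most of the brain's lipoproteins: ABC transporters load cholesterol and phospholipid onto secreted Apoe, and the particles are taken up by receptors of the LDL receptor family on neurons and other cells. Lrp8 and Vldlr of this family also bind Reelin and pass its signal to the adaptor Dab1, and Sorl1 steers cargo, including the amyloid precursor protein, between endosomes and the Golgi.

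The secreted carriers stood far above the lipid exporter Abca1. Levels are in TPM, the share of a library's transcripts after division of reads by transcript length, so that genes can be compared, and come from the first of the authors' 2 quantifiers unless stated. All 8 genes were detected, meaning 1 TPM or more in both libraries, against 26.8% of all annotated genes and 59.1% of nuclear protein-coding genes. By mean TPM the order was Apoe, Clu, Lrp1, Apod, Sorl1, Lrp8, Vldlr and Abca1. Neighbours in that order were called separated where the TPM bounds deposited with each value did not overlap in either library, and 6 of 7 neighbouring pairs were separated. The exception was Apod and Sorl1, whose order was opposite in the libraries: Sorl1 was the higher in replicate 1 and Apod in replicate 2. The bounds belong to 1 library each and carry no spread between animals.

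**Figure D1:**
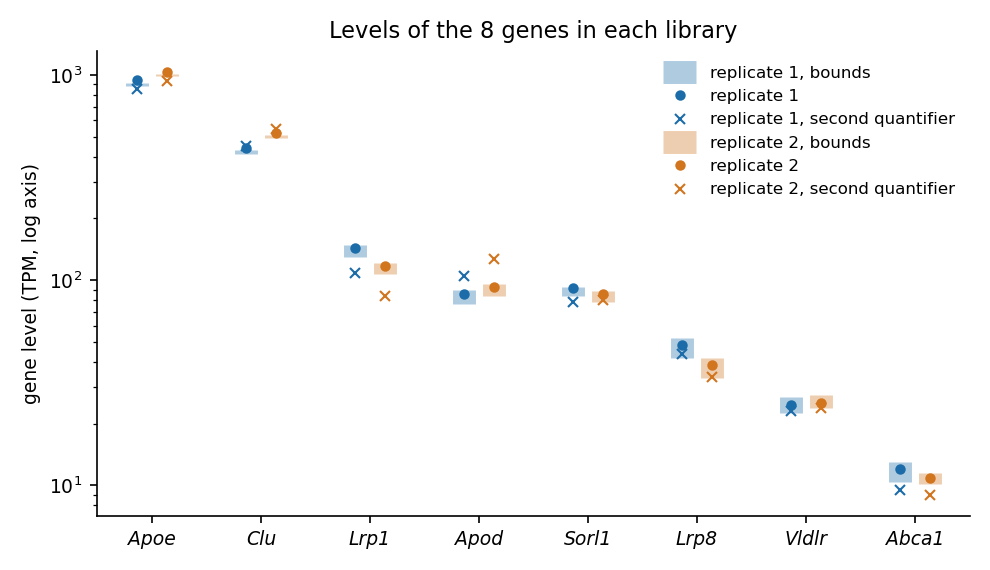
Gene level in TPM on a log axis for each gene, replicate 1 to the left of replicate 2, with dots for the first quantifier, crosses for the second and bars for the deposited TPM bounds of the first. Apoe at a mean of 989 TPM and Abca1 at 11.4 TPM mark the ends of the order, Apod lies above Lrp1 in replicate 2 by the second quantifier, and the dots of Apoe and Clu lie above their own bars.

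Apoe (ENSMUSG00000002985.16, chr7:19696109-19699188, minus strand), the main lipid-carrying protein of brain lipoproteins, had 942 TPM in replicate 1 and 1035 TPM in replicate 2, from 13484 and 20021 expected counts. This placed it at rank 18 in replicate 1 and rank 15 in replicate 2 among 13016 nuclear protein-coding genes detected in both libraries. Its mean was 989 ± 65.4 TPM (SD, n = 2). Clu (ENSMUSG00000022037.15, chr14:65968483-65981547, plus strand), a secreted chaperone also called apolipoprotein J, had 440.4 TPM in replicate 1 and 519.7 TPM in replicate 2, a mean of 480.1 ± 56.1 (SD, n = 2). Both genes were higher in replicate 2, and for both the bounds of the libraries did not overlap. The bounds were 883 to 915 TPM for Apoe and 413 to 430.2 TPM for Clu in replicate 1, and 984 to 1013 TPM and 495 to 511 TPM in replicate 2. Each of these 4 TPM values lay above its own bounds, so a call from the bounds is not a call on the TPM printed beside it. The ratio of Apoe to Clu was 2.14 in replicate 1 and 1.99 in replicate 2.

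Apod (ENSMUSG00000022548.14, chr16:31296192-31314808, minus strand), a lipocalin that binds small hydrophobic molecules, was the third carrier. It had 85.8 TPM in replicate 1 and 92.4 TPM in replicate 2, a mean of 89.1 ± 4.65 (SD, n = 2), and the bounds of the libraries overlapped. Apoe exceeded it 11.0-fold in replicate 1 and 11.2-fold in replicate 2. By the second quantifier Apod was higher, at 105 and 127 TPM, which put it above Lrp1 at 109 and 84.1 TPM in replicate 2 but not in replicate 1.

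Those carriers made up nearly all the summed TPM of the listed apolipoprotein genes. Of 17 genes on this list, which includes the receptor gene Apobr, 4 were detected in both libraries. Apoe held 63.9% of the summed TPM of the list in replicate 1 and 62.7% in replicate 2, Clu held 29.9% and 31.5%, and Apod held 5.82% and 5.59%. The other detected gene, named after its values were seen, was Apoc1, a small apolipoprotein encoded beside Apoe, at 2.78 and 2.50 TPM from 13 and 14 counts. Apob, the scaffold of liver and gut lipoproteins, and Apoa4, Apoc2, Apoc4 and Apom were listed at 0 in both libraries, although the second quantifier gave Apoc4 2.56 and 0.665 TPM.

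**Figure D2:**
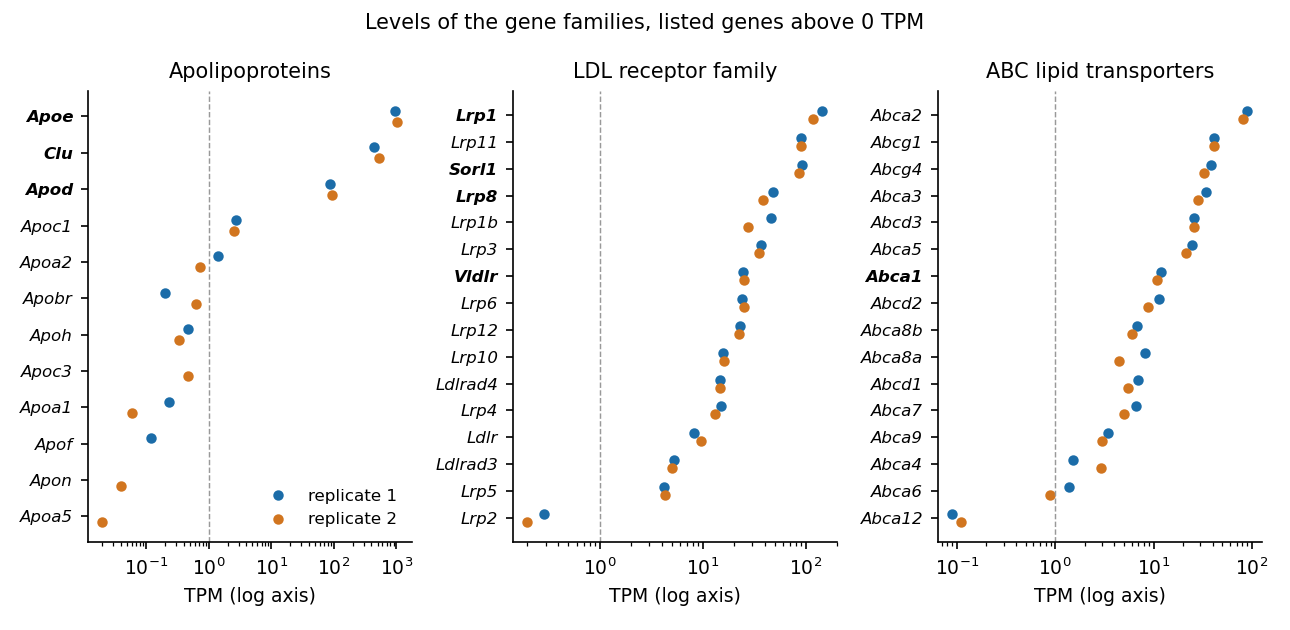
TPM on a log axis of the listed apolipoproteins, LDL receptor family genes and ABC lipid transporters that were above 0, with replicate 1 drawn above replicate 2 in each row, the genes described here in bold and a dashed line at 1 TPM. A step from Apod at a mean of 89.1 TPM to Apoc1 at 2.64 TPM divides the apolipoproteins. Lrp1 is at the top of the receptors and Abca1 in the middle of the transporters. Both of these series end in a step, from Lrp5 at 4.255 TPM to Lrp2 at 0.245 TPM and from Abca6 at 1.13 TPM to Abca12 at 0.10 TPM.

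Abca1 (ENSMUSG00000015243.4, chr4:53030787-53159895, minus strand), the membrane pump that moves cholesterol and phospholipid onto apolipoproteins, was the lowest of the 8 genes. It had 12.03 TPM in replicate 1 and 10.8 TPM in replicate 2, a mean of 11.4 ± 0.841 (SD, n = 2), and exceeded 37.0% and 37.2% of detected nuclear protein-coding genes. Apoe was 78.3-fold higher per length in replicate 1 and 95.5-fold higher in replicate 2. The bounds of the libraries overlapped, and the direction depended on the measure: TPM was higher in replicate 1, while length-blind CPM, which scales counts for library depth, was 64.4 in replicate 1 and 71.5 in replicate 2. In replicate 1, 14.6 counts on the 775-base fragment Abca1-202 made up 12.8% of the gene's TPM, and replicate 2 had 0 counts there. On the full-length coding transcript Abca1-201 alone, the values were 10.5 TPM in replicate 1 and 10.8 TPM in replicate 2.

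Abca1 is the textbook target of the liver X receptors, the oxysterol-sensing nuclear receptors that bind direct repeats spaced by 4 bases, so the start of its promoter is shown. The sequence is RefSeq's on GRCm38.p6, minus strand, covering the 150 bases before the annotated start. Capitals mark an E-box, a liver X receptor-type repeat and a TATA-type motif, at 147 to 142, 67 to 53 and 29 to 24 bases before the start.
Abca1 promoter, chr4:53159896-53160045: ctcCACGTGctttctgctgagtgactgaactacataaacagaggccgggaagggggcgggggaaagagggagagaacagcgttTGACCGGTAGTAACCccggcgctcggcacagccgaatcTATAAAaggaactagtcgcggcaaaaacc
Motifs were searched as letters on both strands in windows of 300 bases, 250 before to 50 after each start, with 13 windows for 7 of the 8 genes and 32851 windows in all. Clu had no entry in the table used. The repeat, searched as GGTTA and GGTCA with 5 bases between them, was found in 16 windows, 0.0487% of all. These letters are those of the element shown for Abca1 read on the other strand, not of a general repeat of this type, so its match and the low share follow from the choice of letters and say nothing of the other genes. The E-box CACGTG was in the windows of Abca1 and Sorl1 and in 7.15% of all. The TATAAA motif was in those of Abca1 and Apoe and in 13.6% of all. The GC box GGGCGG was in those of Abca1, Lrp1, Sorl1 and Vldlr and in 35.7% of all. A match of letters is a description and was not measured as a binding site.

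Around Abca1, 14 of 16 listed ABC lipid transporters were detected. The highest were Abca2, a transporter of myelin-forming cells and neurons, at 85.8 ± 5.62 TPM, and the sterol exporter Abcg1 at 41.1 ± 0.495 TPM, and the lowest was the skin lipid transporter Abca12 at 0.10 ± 0.0141 (SD, n = 2 each). Abca1 ranked below both leading transporters in each library. All 10 listed sterol-sensing genes were detected, led by Srebf2, the regulator of cholesterol synthesis, at 87.8 ± 1.13 TPM and Srebf1, the regulator of fatty acid synthesis, at 51.4 ± 4.10 TPM, with the liver X receptor gene Nr1h3 lowest at 1.64 ± 0.389 TPM (SD, n = 2 each). The other liver X receptor gene, Nr1h2, named after its values were seen, was higher at 29.3 ± 5.81 TPM (SD, n = 2). All 20 sterol synthesis enzymes were detected, from the synthase Hmgcs1 at 102 ± 7.86 TPM to Hsd17b7 at 8.05 ± 0.205 TPM (SD, n = 2 each). Of 14 genes for sterol turnover and lipoprotein remodelling 13 were detected, led by Cyp46a1, the neuronal enzyme that turns cholesterol into exportable 24S-hydroxycholesterol, at 86.7 ± 3.68 TPM and the lysosomal receptor Scarb2 at 49.6 ± 2.38 TPM, with the hydroxylase Ch25h lowest at 0.11 ± 0.0707 TPM (SD, n = 2 each).

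Lrp1 (ENSMUSG00000040249.15, chr10:127538161-127621148, minus strand), a large endocytic receptor for Apoe and many other ligands, was the highest of the listed LDL receptor family genes by gene TPM. It had 144 TPM in replicate 1 and 117 TPM in replicate 2, a mean of 131 ± 18.9 (SD, n = 2), with bounds of 130.4 to 148 TPM and 107 to 122 TPM that did not overlap. Replicate 1 was the higher, the opposite of Apoe and Clu, so the ratio of Clu to Lrp1 was 3.06 in replicate 1 and 4.43 in replicate 2. Of 16 listed members of the family, 15 were detected. Lrp11 followed Lrp1 at 89.7 ± 0.0283 TPM and the kidney receptor Lrp2 was lowest at 0.245 ± 0.0636 TPM (SD, n = 2 each). By the second quantifier Lrp1 was at 109 and 84.1 TPM and Lrp11 at 79.3 and 83.6 TPM in replicates 1 and 2. On protein-coding transcripts alone, a measure chosen after seeing the data, Lrp1 had 94.8 TPM and Sorl1 81.2 TPM in replicate 1. In replicate 2 they had 72.85 and 72.98 TPM, where the lead of Lrp1 was gone.

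Lrp8 (ENSMUSG00000028613.14, chr4:107802261-107876840, plus strand), also called apolipoprotein E receptor 2, had 48.2 TPM in replicate 1 and 38.6 TPM in replicate 2, a mean of 43.4 ± 6.78 (SD, n = 2). Replicate 1 was higher, and the bounds of the libraries were barely apart, from 41.921 TPM upward in replicate 1 and up to 41.916 TPM in replicate 2. Vldlr (ENSMUSG00000024924.14, chr19:27216484-27254231, plus strand), the very low density lipoprotein receptor, had 24.6 TPM in replicate 1 and 25.2 TPM in replicate 2, a mean of 24.9 ± 0.438 (SD, n = 2), and the bounds overlapped. Lrp8 exceeded Vldlr 1.96-fold in replicate 1 and 1.53-fold in replicate 2, and by the second quantifier 1.88-fold and 1.42-fold. On protein-coding transcripts alone, a measure chosen after seeing the data, Lrp8 had 28.2 TPM and Vldlr 23.5 TPM in replicate 1, but 20.5 and 20.6 TPM in replicate 2, where the excess was gone. By the second quantifier Lrp8 had 24.3 coding TPM and Vldlr 19.7 in replicate 1, and 16.7 and 19.8 in replicate 2, where Vldlr was the higher. Coding transcripts held 82.4% of Lrp8 counts in replicate 1 and 80.7% in replicate 2, but 58.4% and 53.05% of its TPM. Short fragments with few counts enter that gap, such as the 672-base Lrp8-207 with 21.1 and 40.3 counts. All 16 listed Reelin pathway genes were detected, led by Pafah1b1, the Lis1 gene of neuronal migration, at 199 ± 9.13 TPM and the kinase gene Src at 69.6 ± 5.90 TPM, with the kinase gene Yes1 lowest at 6.26 ± 0.0141 TPM (SD, n = 2 each). Lrp8os2, an antisense gene to Lrp8, had 1.10 TPM in replicate 1 and 0.30 TPM in replicate 2.

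Both Reelin receptors are spliced at exons that change what the protein does, and an alternative exon of each, from the GENCODE M21 transcripts, is shown because the transcripts divide on them. The first exon below encodes a stretch rich in serine and threonine that carries O-linked sugars, and its capitals mark the in-frame serine and threonine codons, 10 of 27 whole codons. The second encodes the proline-rich insert in the cytoplasmic tail of Lrp8, and its capitals mark the in-frame proline codons, 9 of 59.
Vldlr exon 16 of Vldlr-207, 84 bases, mm10 chr19:27246593-27246676, plus strand: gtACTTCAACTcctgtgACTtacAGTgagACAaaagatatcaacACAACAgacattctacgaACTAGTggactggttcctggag
Lrp8 exon 18 of Lrp8-201, 177 bases, mm10 chr4:107870012-107870188, plus strand: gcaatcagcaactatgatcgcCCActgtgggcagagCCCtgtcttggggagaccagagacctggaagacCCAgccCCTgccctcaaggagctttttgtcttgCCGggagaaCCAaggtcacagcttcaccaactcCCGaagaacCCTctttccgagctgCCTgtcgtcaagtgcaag
Of the share held by transcripts that either contain or skip an exon, those with the Vldlr exon held 59.3% in replicate 1 and 60.6% in replicate 2, or 56.9% and 59.2% by the second quantifier. Transcripts with the Lrp8 insert held 42.5% and 37.5%, or 48.7% and 42.8% by the second quantifier. As a share of all Lrp8 TPM, these 3 transcripts held 31.4% in replicate 1 and 26.5% in replicate 2. Of this, Lrp8-209, annotated as nonsense-mediated decay, held 13.8% and 17.0% of Lrp8 TPM, so the insert share is not a share of coding transcripts alone. In both libraries transcripts without the insert held the larger part for Lrp8, and the transcript with the sugar-bearing exon held the larger part for Vldlr.

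Counting internal exons of coding transcripts that hold whole codons and are skipped by another annotated transcript, Lrp8 had 5 alternative exons and Vldlr 3, and exons of the ligand-binding repeats were among them. The 381-base exon of Lrp8 (chr4:107846239-107846619), which encodes several repeats, was in transcripts holding 29.4% of the informative share in replicate 1 and 26.3% in replicate 2. A 123-base exon of Lrp8 (chr4:107848281-107848403) was in transcripts holding 35.98% and 40.4%, or 46.2% and 45.8% by the second quantifier. Its sole coding carrier, Lrp8-203, held 8.58% and 6.13% of Lrp8 TPM. Another carrier, the 797-base processed transcript Lrp8-212, held 6.51% and 9.08% from 30.8 and 46.5 counts. The 123-base exon of Vldlr (chr19:27236240-27236362) was in transcripts holding 73.1% and 85.2%. By contrast the 225-base exon of Lrp8 (chr4:107861133-107861357), which encodes its own O-linked sugar stretch, was in all of the informative share in both libraries by the first quantifier. These shares do not count reads across the exons themselves. They also include transcripts annotated as nonsense-mediated decay. Lrp8-209 carries the 381-base exon and the 123-base exon of Lrp8, and Vldlr-201 carries the 123-base exon of Vldlr and skips the 84-base one. The sole transcript with the 84-base Vldlr exon, Vldlr-207, is also the one with a last exon of 5127 bases, and Lrp8-202, which lacks the 177-base insert, has a last exon of 4568 bases, so reads in those last exons enter the shares. Lrp8-202 is also annotated with an incomplete start and opens with a 14-base exon, so it does not describe a whole receptor. It counts among the transcripts that skip the 381-base, 123-base and 177-base exons of Lrp8.

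**Figure D3:**
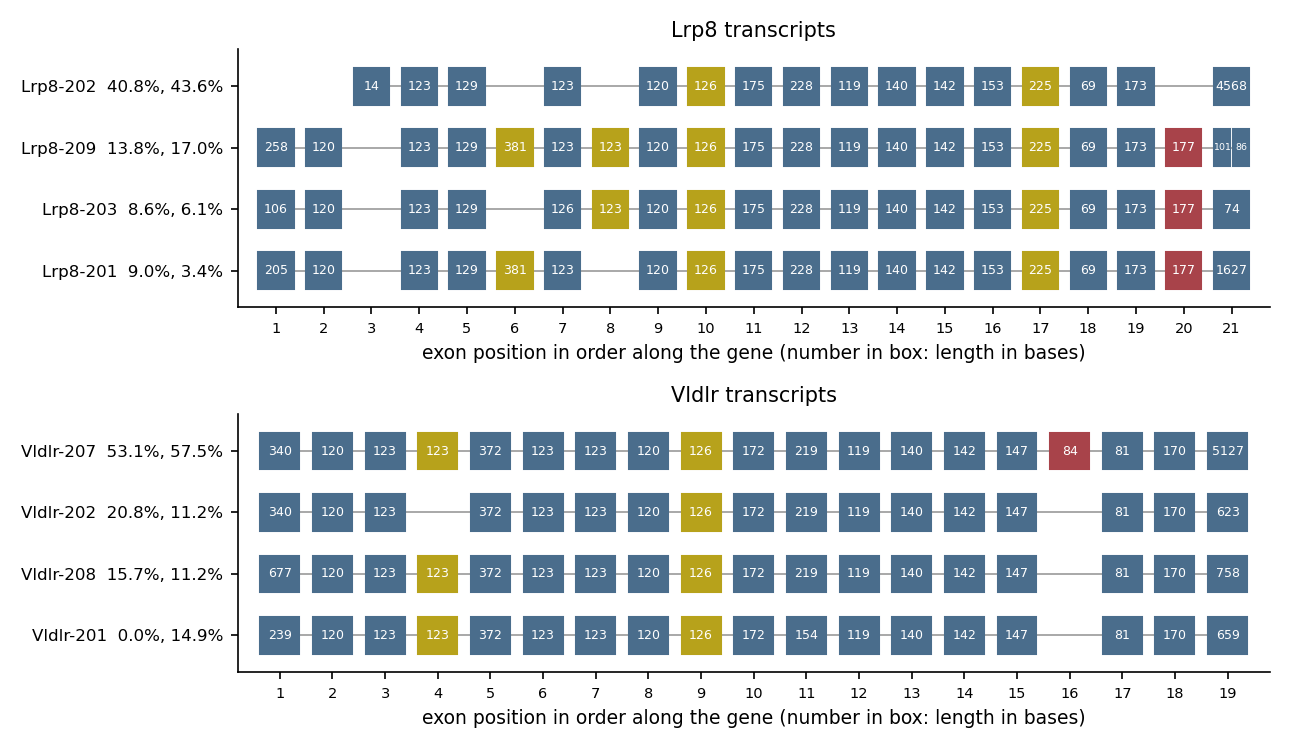
Annotated exons of Lrp8 and Vldlr transcripts with 16 or more exons and a share of 1% or more in a library, retained introns left out, drawn in order and not to scale, with exon length in bases and each transcript's share of gene TPM in replicate 1, then replicate 2. Alternative exons are in yellow, with the last one of each gene (177 and 84 bases) in red, and the long last exons belong to Lrp8-202 and Vldlr-207, the leading transcript of each gene.

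Sorl1 (ENSMUSG00000049313.8, chr9:41964720-42124297, minus strand), which joins a sortilin-type domain to LDL receptor-type repeats, had 91.5 TPM in replicate 1 and 86.0 TPM in replicate 2, a mean of 88.7 ± 3.90 (SD, n = 2). The bounds of the libraries overlapped, and by the second quantifier the values were 78.1 and 79.8 TPM. All 5 genes of the sortilin family were detected, and Sort1, the founding sorting receptor, was above Sorl1 at 181 ± 5.43 TPM, with Sorcs1 lowest at 5.45 ± 0.113 TPM (SD, n = 2 each). Of 22 listed chaperones, adaptors and proteases of these receptors 21 were detected. They were led by the membrane-bending adaptor Bin1 at 142 ± 11.5 TPM and the retromer subunit Vps29 at 87.6 ± 10.2 TPM (SD, n = 2 each).

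A single transcript led each of the 8 genes in both libraries, but the genes differed in how much of their TPM lay on protein-coding transcripts. The 8 genes have 62 annotated transcripts, of which 9 had no counts in either library. The coding share was above 98% for Apoe and Clu, at 99.2% for Apoe and 98.28% for Clu in replicate 1 and 99.7% and 98.35% in replicate 2. It was lowest for Apod, at 52.9% in replicate 1 and 57.6% in replicate 2, and for Lrp8, at 58.4% and 53.05%. Abca1 had 87.2% and 100%, Sorl1 88.7% and 84.9%, Vldlr 95.6% and 81.8%, and Lrp1 65.8% and 62.1%. On coding transcripts alone, a measure chosen after seeing the data, Lrp1 averaged 83.8 TPM, Sorl1 77.1 TPM and Apod 49.3 TPM, so Apod came below Sorl1.

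**Figure D4:**
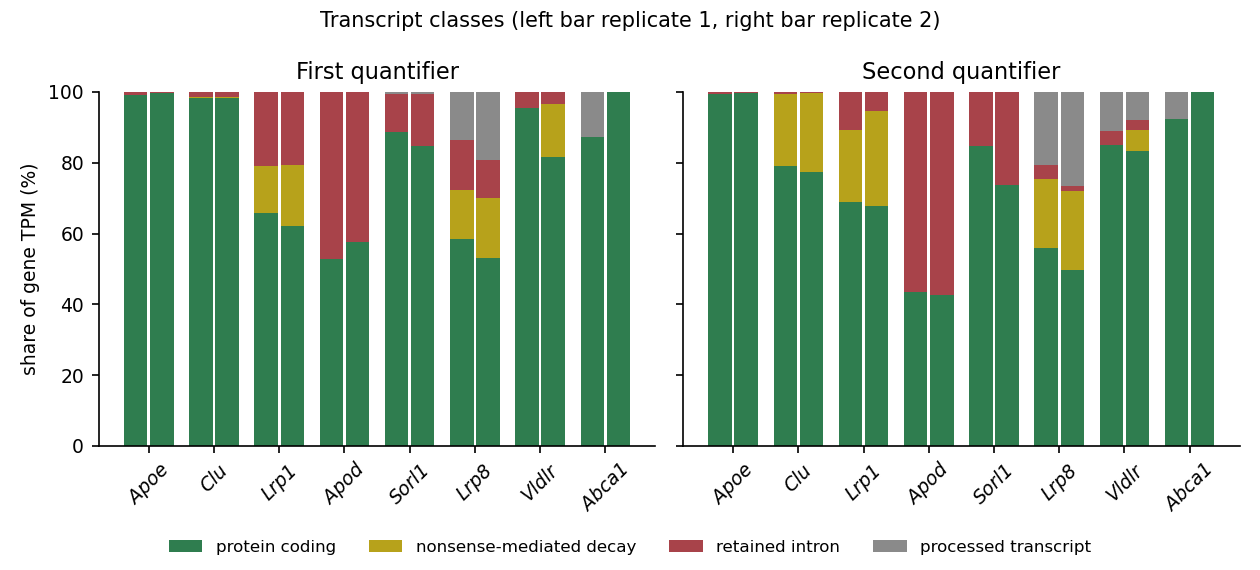
Share of each gene's TPM by annotated transcript class, with replicate 1 as the left bar and replicate 2 as the right bar of each gene, by the first and second quantifier. Apoe is nearly all protein-coding by both, Clu gains a nonsense-mediated decay part of 20.2% in replicate 1 by the second quantifier, and Apod and Lrp8 have the smallest coding parts.

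Apoe-209 held 90.5% of Apoe TPM in replicate 1 and 92.35% in replicate 2, and Clu-201 held 98.0% and 97.9% of Clu. By the second quantifier these leaders held 75.8% and 78.7% of Apoe, and 78.7% and 77.2% of Clu. The difference went largely to Apoe-205, a coding transcript starting inside the gene, at 16.2% and 14.1%, and to Clu-205, a 558-base nonsense-mediated decay transcript, at 20.2% and 22.1%. The first quantifier gave Apoe-205 0.71% in each library and Clu-205 0.34% and 0.11%. The cause of this difference between the quantifiers was not tested.

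Apod-202 was the leading coding transcript of Apod at 48.6% in replicate 1 and 53.3% in replicate 2. Apod-201 followed at 32.7% and 27.1% and Apod-205 at 11.35% and 13.3%, both annotated as retained introns. The second quantifier gave Apod-202 39.7% and 39.8% and Apod-205 30.6% and 40.2%, so that in replicate 2 the 422-base Apod-205 led by a small margin. Apod was the exception to a shared leader: the second quantifier named the same leading transcript in both libraries for 7 of the 8 genes.

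Lrp1-201, the 14888-base transcript of the whole receptor, held 60.3% of Lrp1 TPM in replicate 1 and 56.5% in replicate 2, but 95.6% of its counts in each library. The rest of the TPM was spread over short fragments, in which few counts weigh much per length. Lrp1-205, a nonsense-mediated decay transcript of 679 bases, held 13.3% and 17.4% from 156 and 225 counts, and Lrp1-208, a retained intron, held 11.7% and 14.4% from 157 and 214 counts. The second quantifier gave Lrp1-205 20.2% and 26.7% and Lrp1-208 0 in both libraries.

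Sorl1-201 held 88.7% of Sorl1 TPM in replicate 1 and 84.9% in replicate 2, with the retained intron Sorl1-204 at 6.11% and 12.9%. Lrp8-202, annotated as coding but with an incomplete start, held 40.8% and 43.6% of Lrp8. The nonsense-mediated decay transcript Lrp8-209 held 13.8% and 17.0%. Vldlr-207 held 53.1% and 57.5% of Vldlr, followed by Vldlr-202 at 20.8% and 11.2% and Vldlr-208 at 15.65% and 11.2%. Vldlr-201, annotated as nonsense-mediated decay, had 0 in replicate 1 and 14.95% in replicate 2, while the second quantifier gave it 5.80% in replicate 2. Total RNA also holds unspliced precursor, and its part in the retained intron and fragment classes was not tested.

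None of the 8 genes passed the test between the libraries. The test was edgeR's deviance from a common mean on expected counts, with Benjamini-Hochberg adjustment over 16123 genes, and 130 genes passed at an adjusted p under 0.05, which is 0.806% of those tested. The adjusted p was 1.00 for each of the 8 genes, and 0 of 8 had an unadjusted p under 0.05, against 4.83% of tested genes. These p-values compare 2 libraries of 1 group, so animal, dissection and library preparation cannot be told apart. The spread that the test allows, its dispersion, was estimated from the same 2 libraries. The share of genes under the unadjusted threshold therefore largely follows from how the test was built. Only genes that stand out from others of like level can pass, and not passing does not show equal levels. The log2 ratio of replicate 1 over replicate 2 in scaled CPM was lowest for Clu at -0.36 and highest for Lrp1 at 0.27. Apoe was at -0.26, Apod and Vldlr at -0.22 each, Abca1 at -0.15, Sorl1 at 0.03 and Lrp8 at 0.23. The ratio was above 0 for 3 genes and below 0 for 5, with a median of -0.19, and over all tested genes it was above 0 for 8096 and below 0 for 8027, with a median of 0.00. Scaling by spike-ins shifted all genes by 0.23 on the log2 scale, and Apod, Vldlr and Abca1 then lay at or just above 0, at 0.01, 0.01 and 0.08.

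**Figure D5:**
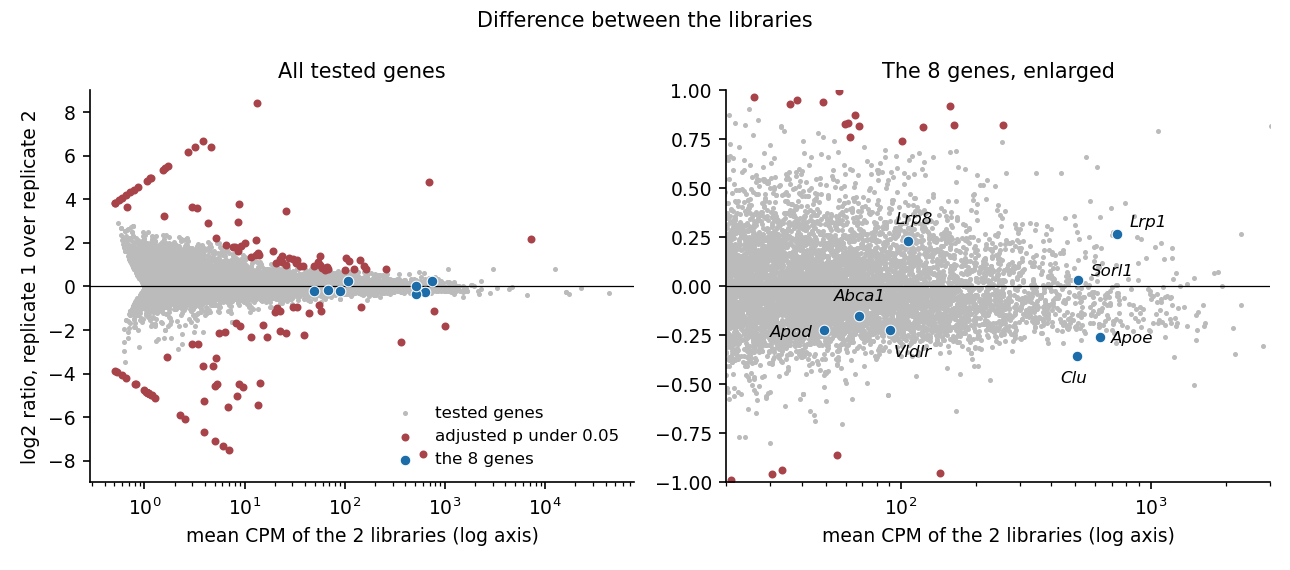
Log2 ratio of replicate 1 over replicate 2 against mean CPM on a log axis for all 16123 tested genes (left) and enlarged around the 8 genes (right), with genes past the adjusted threshold in red. The 8 genes lie between -0.36 for Clu and 0.27 for Lrp1, within the grey cloud.

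By the TPM bounds, which carry no spread between animals, 4 of the 8 genes had libraries apart, against 23.3% of the 14884 detected genes. The detected genes were not matched to the 8 for read counts, on which the width of the bounds depends. Each of the 8 had 1074 or more counts, while detected Apoc1 had 13 in replicate 1, so these shares are not like for like. Lrp1 and Lrp8 were higher in replicate 1, as were 19.3% of detected genes, and Apoe and Clu were higher in replicate 2, as were 4% of detected genes. The direction of TPM was the same by both quantifiers for 7 of the 8 genes, and Sorl1 was the exception.

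The libraries differed in choroid plexus RNA, the epithelium that makes cerebrospinal fluid. The summed TPM of its 9 markers was 17.9 in replicate 1 and 1792 in replicate 2, from Ttr, the transthyretin gene, at 8.68 and 1703 TPM down to Otx2 at 0.80 and 3.50 TPM, and 8 of the 9 passed the edgeR test, all higher in replicate 2. By TPM, 4 of the 8 genes were higher in replicate 2, namely Apoe, Clu, Apod and Vldlr, and 4 were higher in replicate 1. Among all nuclear protein-coding genes, 6324 were higher in replicate 2 and 10774 in replicate 1. For Apod and Vldlr the TPM bounds of the libraries overlapped. None of the 8 passed, and the part of choroid plexus RNA in their values was not tested. The ABC transporter Abca4, best known from the retina, was the sole listed gene of lipid transport or metabolism that passed. It had 1.53 TPM in replicate 1 and 2.91 TPM in replicate 2 from 56 and 307 counts (log2 ratio -2.11, edgeR adjusted p = 0.0115) and was higher in replicate 2, as the choroid plexus markers were. The size of its difference depended on the measure: scaled CPM was 2.38 in replicate 1 and 10.5 in replicate 2, the second quantifier gave 2.16 and 2.85 TPM, and the TPM bounds of the libraries overlapped. The part of choroid plexus RNA in the value of Abca4 was not tested. In the other lists of this biology 0 genes passed: 0 of 3 tested apolipoproteins, 0 of 16 LDL receptor family genes, 0 of 5 sortilin family genes, 0 of 16 Reelin pathway genes, 0 of 21 chaperones and adaptors, 0 of 10 sterol-sensing genes, 0 of 20 sterol synthesis enzymes and 0 of 13 genes of sterol turnover. An unadjusted p under 0.05 was reached by 1 of the LDL receptor family (Lrp1b), 2 of the sterol-sensing genes (Insig1 and Srebf1), 1 of the sterol turnover genes (Pltp) and 0 in the other lists named. Insig1, which holds the sterol sensor in the endoplasmic reticulum and is named here after its values were seen, came nearest, at 30.9 TPM in replicate 1 and 46.0 TPM in replicate 2 (log2 ratio -0.70, edgeR adjusted p = 0.0922). Of the 20 sterol synthesis enzymes 3 had a log2 ratio above 0 and 17 below, with a median of -0.18. This is smaller in size than the shift of 0.23 that spike-in scaling gave all genes. Over all tested genes 8096 lay above 0 and 8027 below. The lean was not particular to these enzymes. The ratio was below 0 for 7 of 7 oligodendrocyte markers (median -0.22), 6 of 6 interneuron markers (-0.17) and 7 of 8 astrocyte markers (-0.12). Endothelial markers were even, with 3 above 0 and 3 below. Of 6 leptomeningeal fibroblast markers, whose sum was 89.1 TPM in replicate 1 and 134 TPM in replicate 2, Igf2 alone passed, at 35.2 and 77.2 TPM (log2 ratio -1.15, edgeR adjusted p = 2.83e-05), and Lum was lowest at 3.50 and 3.38 TPM. Most of the gap in the sum was Igf2. The median log2 ratio of the 6 markers was -0.08, with 1 above 0 and 5 below. Of 6 ependymal markers, with sums of 17.4 and 25.4 TPM, 4 were tested and 0 passed, at an unadjusted p under 0.05 also 0, from Rarres2 at 8.43 and 10.6 TPM to Dynlrb2 at 0 and 2.28 TPM. In bulk tissue, fewer cells of a type and less RNA per cell cannot be told apart.

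Markers of the labelled tissue were present. All 9 hippocampal subfield markers were detected, from Mpped1 at 96.3 TPM to Amigo2 at 10.5 TPM on average. Summed marker levels were also taken for the cell types that make or receive these lipoproteins. Astrocyte markers, with Slc1a2 highest and Aldh1l1 lowest, summed to 1870 TPM in replicate 1 and 1828 TPM in replicate 2. Oligodendrocyte markers, with Mbp highest and Opalin lowest, summed to 1747 and 1733 TPM, and microglial markers, with Aif1 lowest, to 182 and 197 TPM. Glutamatergic neuron markers, Camk2a to Neurod2, summed to 2942 and 2945 TPM, and interneuron markers, Cck to Vip, to 697 and 723 TPM. Endothelial markers, Ly6c1 to Kdr, summed to 98.9 and 94.5 TPM and mural markers, Rgs5 to Kcnj8, to 42.0 and 49.2 TPM. Replicate 1 held 23458117 expected counts in all and replicate 2 held 29584307.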

How the data were processed

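Per the file descriptions and file headers deposited with the data, reads were assigned to mm10 with GENCODE release M21. The authors deposited, per library, a gene table and a transcript table made from transcriptome alignments (first quantifier) and a transcript table made from the read files (second). For the programs and their versions, nothing is stated in the sources used. Deposited expected counts (estimated reads, unscaled) and TPM are per feature, the deposited percent is each transcript's share of gene TPM, and the level of the deposited TPM bounds is not given.

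Second-quantifier values were summed per gene. Levels are means and SDs of 2 libraries, with detection at 1 TPM. Expected counts were rounded and tested with edgeR 4.0.16 in R 4.3.3: CPM of 1 or more in at least 1 library, TMM scaling, intercept-only fit, trended dispersion, residual deviance against chi-square with 1 degree of freedom, prior count 2, adjusted p under 0.05. The script was tested on simulated data. Python 3.11.15 and matplotlib 3.10.9 were also used. Alternatives covered quantifier, estimate, scaling, filter, dispersion and replicate.

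The 8 genes and all lists were chosen with earlier results of these data known. Named beside the 8 genes are the 2 highest and the lowest of each gene list by mean TPM, the highest and lowest of each marker list, list genes that passed the test, and transcripts that led or held 10% or more in both libraries, and a few genes that this rule names are not reported here. Depth was 23408838 and 29512441 expected counts on annotated genes. The TPM bounds carry no spread between animals.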

Additional observations from a re-analysis of the deposited data

How the results depend on the processing

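By the second quantifier, mean TPM was 894 for Apoe, 116 for Apod, 96.5 for Lrp1, 79.0 for Sorl1, 23.4 for Vldlr and 9.28 for Abca1. With TPM rescaled over nuclear protein-coding genes it was 1994 for Apoe, 969 for Clu, 263 for Lrp1, 179.6 for Apod, 179 for Sorl1, 87.3 for Lrp8, 50.2 for Vldlr and 23.0 for Abca1. On coding transcripts only, chosen after seeing the data, it was 83.8 for Lrp1, 77.1 for Sorl1, 49.3 for Apod, 24.3 for Lrp8 and 22.1 for Vldlr. Of the 8 ranks, 8 were the same without replicate 1 or by posterior mean TPM, and 6 without replicate 2, by the second quantifier or on coding transcripts. Between libraries, 341 genes passed with a common dispersion (260 higher in replicate 1, 81 in replicate 2), against 130 (70 and 60), and 87 (61 and 26) with CPM of 1 or more required in both. None of the 8 genes passed in any of 10 settings, with a lowest adjusted p of 0.876. Spike-in scaling moved the median log2 ratio of all genes by 0.23, and under it Apod (0.01), Abca1 (0.08) and Vldlr (0.01) lay above 0. Sorl1 was below 0 in 2 settings, at -0.01 by the second quantifier. The cause of these shifts was not tested. No paired analysis was possible because the labels define 1 group, and the test between libraries was not run with a replicate left out, which leaves 1 library. Few counts lie behind some transcript values, such as the 14.6 counts on Abca1-202.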
